A study of Mus musculus with 12 samples.

Results

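The 4 Ezh2 knockout lists of H3K27me3 peaks in this series came from the same fibroblast clone, but those of experiment 1 held 36427 and 55489 peaks and those of experiment 2 held 29 and 382. The question addressed here is which knockout sites were called in both experiments, which were called in one alone, and what lay at each. Peaks on the 19 autosomes that overlapped by at least 1 bp were joined into regions, whatever list they came from. The 92327 knockout peaks formed 71742 regions, of the 195396 regions formed by all 461631 peaks of the 10 lists. Of the knockout regions, 67 held peaks of both experiments and are called recurrent. A further 71365 were private to experiment 1 and 310 were private to experiment 2. A single region held peaks of all 4 libraries.

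The cells are C2 iMEFs, immortalized mouse embryonic fibroblasts. The study's methods describe a single clone, obtained by limiting dilution, of fibroblasts transformed with a retrovirus carrying human c-MYC. Its genotype is Ezh2 flox/Δ;ROSA26-CreERT2, in which a tamoxifen metabolite activates a ubiquitously expressed Cre. The labels give the genotypes as Ezh2 WT/WT and Ezh2 -/-. Wild-type and knockout cells were profiled with 2 libraries each in experiment 1 and in experiment 2, and experiment 2 also holds 1 library each of cells labelled Ezh1 and Ezh2 pre-rescue, in which the transgene was introduced before the endogenous gene was deleted. Experiment 1 used the Active Motif antibody 39155 and 75-bp reads, and experiment 2 used the antibody clone 7b11 and 100-bp reads, so that experiment, antibody and sequencing platform cannot be told apart in any comparison between the 2 pairs of knockout libraries. Nothing in the labels says that the replicates are separate cultures, so the spread between them may be technical. Depth is unknown because the lists give positions only, and the genotype could not be checked from them. No library had a peak within 2500 bp of the transcription start site (TSS) of Ezh2 itself.

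As background, Ezh2 is the main catalytic subunit of the Polycomb repressive complex PRC2, which deposits the trimethyl mark on lysine 27 of histone H3. Its paralog Ezh1 can assemble into the same complex and has weaker methyltransferase activity. In fibroblasts the mark lies over silent developmental regulators, typically at GC-rich promoters with many CpG dinucleotides, and over broad domains around them. Housekeeping genes and other active genes usually lack it.

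Sequences of 300 bases from 7 sites, read from NCBIM37 (mm9) on the plus strand, show how the marked sites differed in CpG content. Every CG dinucleotide is in capitals. Of 7978600 windows of 300 bp tiling the autosomes, 81.41% held at least 1 CG, and the median was 2. The stretch from the region found in all 4 lists lies 1493 bp upstream of the Prdm12 TSS (chr2:31493914-31494213), outside any annotated protein-coding gene, and holds 8 CG dinucleotides.
Prdm12 upstream: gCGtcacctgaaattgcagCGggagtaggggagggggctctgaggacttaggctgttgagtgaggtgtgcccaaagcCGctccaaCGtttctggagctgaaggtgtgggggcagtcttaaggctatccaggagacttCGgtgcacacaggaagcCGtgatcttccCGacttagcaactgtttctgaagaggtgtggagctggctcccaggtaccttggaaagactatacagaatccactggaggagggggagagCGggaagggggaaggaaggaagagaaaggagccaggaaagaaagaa
From the 2 widest regions private to experiment 2 in both of its libraries, the stretch at Wnt7b (chr15:85408501-85408800) lies in an intron 3600 bp downstream of the TSS and holds 17 CG dinucleotides. The other lies in an intron of Grinl1a (chr9:71356951-71357250) and holds 3.
Wnt7b intron: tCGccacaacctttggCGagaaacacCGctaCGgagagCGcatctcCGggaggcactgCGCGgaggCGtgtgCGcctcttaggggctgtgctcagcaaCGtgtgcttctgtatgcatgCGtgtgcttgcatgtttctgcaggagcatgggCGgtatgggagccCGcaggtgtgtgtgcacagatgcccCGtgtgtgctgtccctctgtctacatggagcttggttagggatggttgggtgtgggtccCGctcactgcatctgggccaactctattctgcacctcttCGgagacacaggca
Grinl1a intron: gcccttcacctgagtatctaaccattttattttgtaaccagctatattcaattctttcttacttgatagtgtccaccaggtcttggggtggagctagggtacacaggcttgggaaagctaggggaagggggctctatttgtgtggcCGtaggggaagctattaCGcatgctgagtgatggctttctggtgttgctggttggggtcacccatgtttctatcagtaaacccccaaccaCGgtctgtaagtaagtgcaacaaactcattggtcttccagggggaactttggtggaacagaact
From the 2 widest regions private to experiment 1 in both of its libraries, a stretch in an intron of Rbfox3 (chr11:118500765-118501064) holds 4 CG dinucleotides and an intergenic stretch (chr11:114134054-114134353), whose nearest protein-coding gene is 1700092K14Rik, holds 1.
Rbfox3 intron: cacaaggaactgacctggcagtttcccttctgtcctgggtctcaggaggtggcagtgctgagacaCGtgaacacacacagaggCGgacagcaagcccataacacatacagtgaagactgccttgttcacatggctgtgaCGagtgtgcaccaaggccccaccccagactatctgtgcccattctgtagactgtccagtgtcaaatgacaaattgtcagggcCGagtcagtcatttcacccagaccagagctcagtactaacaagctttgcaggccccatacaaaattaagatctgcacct
Intergenic, chromosome 11: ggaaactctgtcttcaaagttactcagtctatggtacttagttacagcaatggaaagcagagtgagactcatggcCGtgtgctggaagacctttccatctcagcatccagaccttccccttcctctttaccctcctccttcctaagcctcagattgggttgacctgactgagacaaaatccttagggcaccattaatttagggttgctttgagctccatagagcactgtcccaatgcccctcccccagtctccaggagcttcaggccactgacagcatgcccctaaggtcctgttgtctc
A pair of recurrent stretches was added after the values were seen, because one stands for the recurrent regions that wild-type cells share and the other for those they lack. The first lies in an intron of Hmx1 (chr5:35733586-35733885, 5 CG dinucleotides), and the second covers sequence that is exonic in the annotation of Hspa8 (chr9:40611771-40612070, 4 CG dinucleotides), 203 bp of it coding.
Hmx1 intron: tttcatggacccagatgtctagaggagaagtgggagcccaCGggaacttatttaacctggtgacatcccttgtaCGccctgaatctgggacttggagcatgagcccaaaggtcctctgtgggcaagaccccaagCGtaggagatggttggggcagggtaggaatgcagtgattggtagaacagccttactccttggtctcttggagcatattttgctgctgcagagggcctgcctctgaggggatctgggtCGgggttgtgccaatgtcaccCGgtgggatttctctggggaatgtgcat
Hspa8 exon: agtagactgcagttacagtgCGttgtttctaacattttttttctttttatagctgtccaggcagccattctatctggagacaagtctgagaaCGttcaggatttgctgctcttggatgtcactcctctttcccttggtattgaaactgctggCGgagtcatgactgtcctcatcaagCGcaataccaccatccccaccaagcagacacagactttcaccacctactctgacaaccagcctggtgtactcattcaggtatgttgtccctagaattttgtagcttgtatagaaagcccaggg

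The 2 pairs of knockout lists differed in size, in the width of their peaks and in composition, with no overlap between the pairs in any of these measures. In experiment 1 the lists held 36427 peaks in replicate 1 and 55489 in replicate 2, covering 24.26 and 56.61 Mb of the autosomes. In experiment 2 they held 29 and 382 peaks, covering 0.05885 and 0.4809 Mb. Wild-type lists were longer within each experiment, at 139.5 and 174.4 Mb in experiment 1 and 14.85 and 11.24 Mb in experiment 2. The median knockout peak was 509 and 598 bp wide in experiment 1 and 1350 and 850 bp in experiment 2. The lists also differ in form. All positions of experiment 2 lie on a grid of 50 bp with a narrowest peak of 550 bp, and the narrowest peak of experiment 1 measures 150 bp. How far this sets the difference in width was not tested. The exact permutation test of 2 against 2 libraries, two-sided, gave p = 0.33 for the covered length, which is the smallest p this design allows.

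Peaks of experiment 2 knockout were richer in G and C. The median GC content of a peak was 43.72% and 44.55% in the libraries of experiment 1 and 52.12% and 51.49% in those of experiment 2, a difference of 7.67 percentage points between the means (44.1% ± 0.587 and 51.8% ± 0.446, SD, n = 2 each; exact permutation test, two-sided, p = 0.33). The ratio of observed to expected CpG was 0.1328 and 0.1434 in experiment 1 and 0.252 and 0.2148 in experiment 2. Within experiment 1 the wild-type medians of GC content, 44.8% and 44.36%, overlapped those of the knockout, while in experiment 2 both knockout values lay above the wild-type values of 47.25% and 48.55%. Peaks also reached promoters more often in experiment 2. Of its knockout peaks, 34.48% and 25.65% overlapped a promoter window, taken as 2500 bp to each side of a protein-coding TSS, against 4.538% and 4.208% in experiment 1 (exact permutation test, two-sided, p = 0.33). Of 1-kb tiles across the autosomes, 4.94% touched such a window, so the share in experiment 1 was close to that of the genome at large.

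Few knockout sites recurred between experiments. Of the 383 joined knockout regions of experiment 2, 73 met a knockout peak of experiment 1, or 19.06% (95% Wilson interval 15.44 to 23.29, counting error only). Joined with the peaks they met, these 73 made up the 67 recurrent regions. Of 1-kb autosomal tiles, 5.58% met one. Measured in bases, which is less sensitive to region width, 8.954% of the experiment 2 regions lay under knockout peaks of experiment 1, against 2.755% of the autosomes. In the other direction 68 of 71433 regions of experiment 1 met a knockout peak of experiment 2, or 0.09519% (0.0751 to 0.1207), against 0.0336% of tiles.

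Recurrence rested mainly on the longer list of each pair. Among the 67 recurrent regions, 66 held a peak of replicate 2 of experiment 1 and 28 a peak of replicate 1. Likewise 66 held a peak of replicate 2 of experiment 2 and 4 a peak of its replicate 1. Without replicate 2 of experiment 1, 20 regions recurred and the share of experiment 2 regions that met experiment 1 was 5.222%. Without replicate 2 of experiment 2, 4 regions recurred, and the share was 13.79% of 29. Among peaks of at least 1000 bp, 9 regions recurred. Within experiments the lists shared more, except for replicate 2 of experiment 2 by count of peaks. In experiment 1, 54.28% of replicate 1 peaks met a replicate 2 peak and 29.53% of replicate 2 peaks met a replicate 1 peak. In experiment 2, 28 of 29 peaks of replicate 1 met one of replicate 2. Of the 382 peaks of replicate 2, 25 (6.545%) met one of the 29 of replicate 1, and 71 (18.59%) met one of replicate 2 of experiment 1. In bases these 2 shares were 11.95% and 8.433%.

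Among knockout regions of experiment 2, recurrence differed by width. Of its regions from 550 to under 850 bp, 35 of 178 met a knockout peak of experiment 1, and of those from 850 to under 1200 bp, 27 of 101 did. From 1200 to under 2000 bp the count was 7 of 53, and at 2000 bp or more it was 4 of 51. The share was highest from 850 to under 1200 bp (26.73%) and lowest at 2000 bp or more (7.843%), although a wider region meets a peak more easily by its width alone. Regions private to experiment 2 lay a median of 39887 bp from the nearest knockout peak of experiment 1, and 82 of 310 (26.45%) lay within 10 kb of one. Of tiles without such a peak, 18.58% lay within 10 kb of one, and the median distance of these tiles was 78658 bp.

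Recurrent regions and those private to experiment 2 were sites that wild-type cells also carry, and the regions private to experiment 1 mostly were not. Of the recurrent regions, 60 of 67 (89.55%, 79.97 to 94.85) overlapped a wild-type peak of experiment 1. The share was 281 of 310 (90.65%, 86.89 to 93.41) for regions private to experiment 2 and 5291 of 71365 (7.414%, 7.224 to 7.609) for those private to experiment 1. Of 1-kb tiles, 11.7% overlapped one, so that the regions private to experiment 1 met wild-type peaks less often than tiles did, although the wild-type lists came from the same experiment. These regions are also narrower than tiles. Measured in bases, 5.876% and 7.687% of the knockout peak bases of experiment 1 lay under wild-type peaks of that experiment, against 8.068% of the autosomes. Of the knockout peak bases of experiment 2, 87.47% and 85.77% lay under these wild-type peaks of experiment 1. Under wild-type peaks of experiment 2 itself lay 59.22% and 37.85% of them, against 0.9254% of the autosomes. Among the 15649 regions private to experiment 1 and found in both of its knockout libraries, 10.41% (9.941 to 10.9) overlapped a wild-type peak of experiment 1. Regions differ in width between the classes, with medians of 1752 bp for recurrent regions, 572 bp for those private to experiment 1 and 850 bp for those private to experiment 2.

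**Figure D1:**
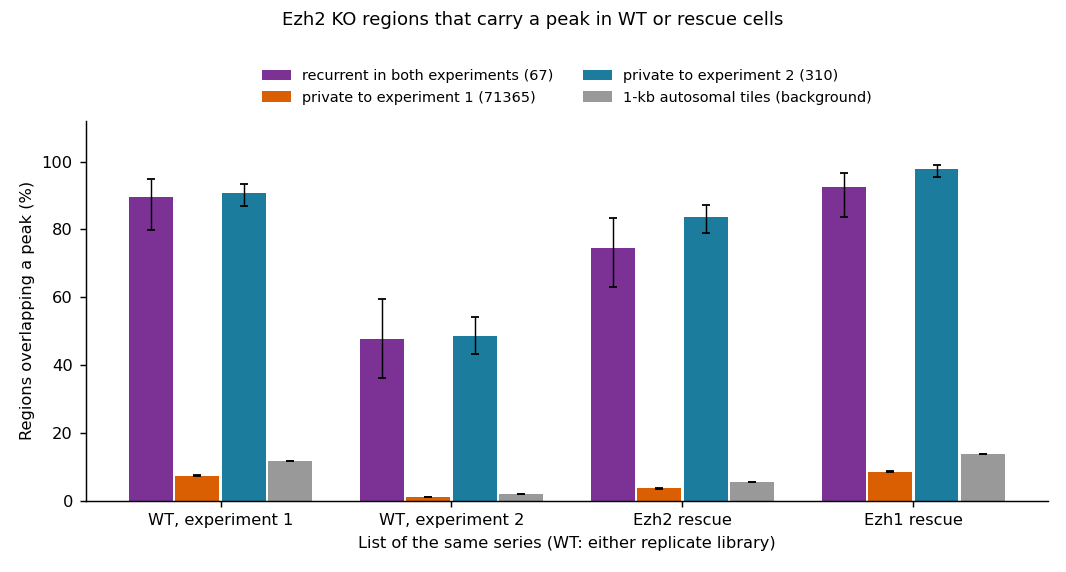
Share of Ezh2 knockout regions, in percent, that overlap a peak of wild-type cells of experiment 1 or 2 (either replicate) or of the Ezh2 or Ezh1 rescue library. Bars are the 3 classes of knockout region and 1-kb autosomal tiles, and error bars are 95% Wilson intervals. Recurrent regions (89.55%) and regions private to experiment 2 (90.65%) stand far above the tiles in wild type of experiment 1, and regions private to experiment 1 (7.414%) lie below them.

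The classes separated in the same way in the other lists of the series. Wild-type peaks of experiment 2 met 47.76% of recurrent regions, 48.71% of those private to experiment 2 and 1.125% of those private to experiment 1, against 1.98% of tiles. Peaks of the Ezh1 rescue library met 92.54%, 97.74% and 8.571%, against 13.8% of tiles. For the Ezh2 rescue library the shares were 74.63%, 83.55% and 3.753%, against 5.51% of tiles. Outside every wild-type and rescue list lay 3 of the 67 recurrent regions (at Nop56, at Hspa8 and 271294 bp from Dmrt2), 7 of the 310 private to experiment 2, and 63450 of the 71365 private to experiment 1.

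Recurrent regions met wild-type domains of experiment 1 that were wider than those met by tiles. The median joined wild-type domain was 9607 bp at recurrent regions, 11745 bp at regions private to experiment 2 and 1909 bp at those private to experiment 1. Domains of 20 kb or more held 15 of 67 recurrent regions and 95 of 310 regions private to experiment 2 (30.65%), against 1.005% of tiles. Wider domains are met more easily by any region, and the corresponding median over tiles that met a domain was 3353 bp.

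In base composition, recurrent regions resembled those private to experiment 2 more than those private to experiment 1. Their median GC content was 50.31% (quartiles 46.73 and 52.9), compared with 51.69% (47.75 and 55.69) for regions private to experiment 2, 43.87% (40.43 and 47.0) for those private to experiment 1 and 41.7% for tiles. At the upper end the counts of the first 2 classes differed. A GC content of at least 60%, typical of CpG-island promoters, was reached by 28 of 310 regions private to experiment 2 (9.032%) and by 0 of 67 recurrent regions. That 0 allows a share of up to 4.478% if regions are independent, but 11 of the 67 lie in 1 bin of 1 Mb. Recurrent regions also include the experiment 1 peaks joined to them and were wider, with medians of 1752 and 850 bp. How far this sets the difference was not tested. The same GC content was reached by 11 of 71365 regions private to experiment 1 and by 0.4798% of tiles. The ratio of observed to expected CpG was 0.1776 for recurrent regions, 0.2326 and 0.1361 for those private to experiments 2 and 1, and 0.1613 for tiles. Regions private to experiment 1 thus lay above tiles in GC content and below them in the CpG ratio.

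**Figure D2:**
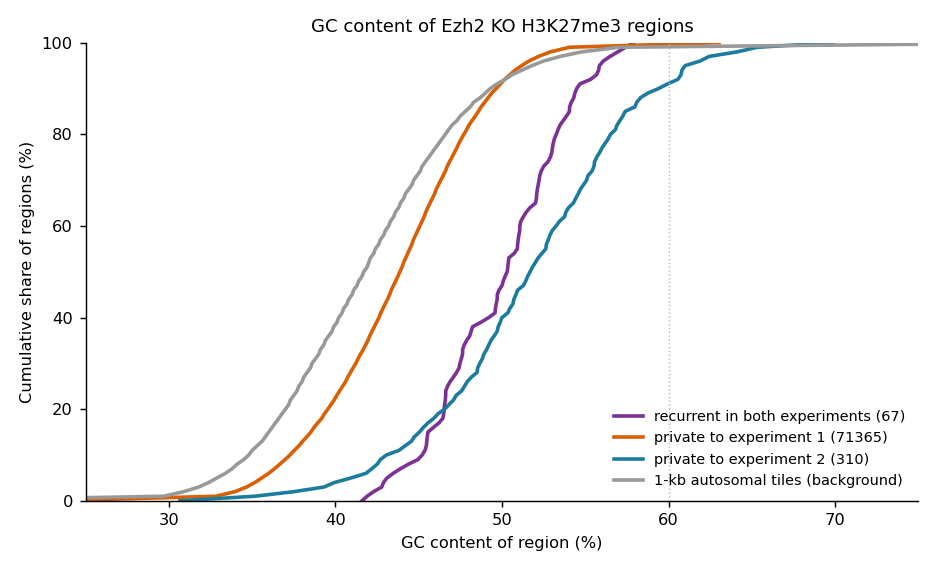
Cumulative distribution of GC content, in percent, for the 3 classes of knockout region and for 1-kb autosomal tiles, with a dotted line at 60%. The curves of recurrent regions and of regions private to experiment 2 lie to the right of the others, with medians of 50.31% and 51.69%, and beyond the dotted line lie 28 of 310 regions private to experiment 2 and 0 of 67 recurrent ones.

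The classes also differed in their position relative to genes. The median distance from a region to the nearest protein-coding TSS was 19838 bp for recurrent regions, 8469 bp for those private to experiment 2, 116591 bp for those private to experiment 1 and 66675 bp for tiles. A promoter window was touched by 9 of 67 recurrent regions (13.43%, 7.231 to 23.6), by 92 of 310 private to experiment 2 (29.68%, 24.87 to 34.99) and by 4.214% of those private to experiment 1. Assigned by midpoint, recurrent regions were 37.31% intronic, 49.25% intergenic and 10.45% in promoters. Regions private to experiment 2 were intronic in 93 of 310 cases, intergenic in 36.13% in promoters in 26.45%. For those private to experiment 1 the shares were 29.05%, 63.7% and 3.673%, and for tiles 34.82%, 56.36% and 4.142%.

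Recurrent regions were unevenly spread over the chromosomes. Chromosomes 2, 5 and 11, picked because they held the most recurrent regions, held 44 of 67 (65.67%). They make up 18.45% of autosomal bases and held 42.26% of the regions private to experiment 2 and 27.18% of those private to experiment 1. Chromosome 5 alone held 19. It also held 21.25% and 21.7% of the bases under knockout peaks in experiment 1 and 9.346% and 15.34% in experiment 2, compared with 6.738% and 6.423% in wild type of experiment 1 and 9.053% and 8.752% in wild type of experiment 2. The part of this excess in the recurrence was not tested. Without chromosome 5, 48 regions recurred.

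Experiment 2 knockout regions came in clusters. Of 2482 bins of 1 Mb, 172 held such a region, and 17 held 5 or more. Those 17 bins held 124 of the 377 recurrent or private regions of experiment 2 (32.89%) and 26 of the 67 recurrent ones. The fullest bin, chr5:35000001-36000000, held 15 knockout regions of experiment 2, of which 11 recurred. It was followed by chr5:112000001-113000000 with 11 regions and 2 recurrent, by chr2:163000001-164000000 with 10 and none recurrent, and by chr11:98000001-99000000 with 10 and 1 recurrent.

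The fullest bin surrounds Hmx1, which encodes a homeobox transcription factor of the developing eye, ear and sensory ganglia. Its 11 recurrent regions span 256.9 kb, from chr5:35633495 to 35890414, with Adra2c, an adrenergic receptor gene, and Cpz, a carboxypeptidase gene, as the nearest genes at its ends. Within them, 0 bp lay under peaks of replicate 1 of experiment 2 and 14050 bp under peaks of replicate 2. In experiment 1 the figures were 8892 bp in replicate 1 and 52875 bp in replicate 2. Peaks of experiment 1 replicate 1 lay in 6 of the 11 regions, and all 11 overlapped peaks of both wild-type libraries of experiment 1. The recurrence at this locus therefore rests on 1 library of experiment 2, while both libraries of experiment 1 carried peaks there.

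A single region held peaks of all 4 knockout libraries. It covers chr2:31492401-31496650 (4250 bp, GC content 57.91%) and includes the TSS of Prdm12, at chr2:31495557 on the plus strand, which encodes a PR-domain transcription factor required in pain-sensing neurons. Peaks covered 449 and 570 bp of it in the knockout libraries of experiment 1 and 2150 and 4250 bp in those of experiment 2. Both wild-type libraries of experiment 1 covered the whole region, whereas both wild-type libraries of experiment 2 had no peak in it, although they had peaks on either side. Bases shared by the 4 knockout lists numbered 150. The peaks of experiment 1 all lay upstream of the TSS, and 1 peak of experiment 2 replicate 2 ran across it. With only peaks of at least 550 bp kept, no region held all 4 libraries.

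**Figure D3:**
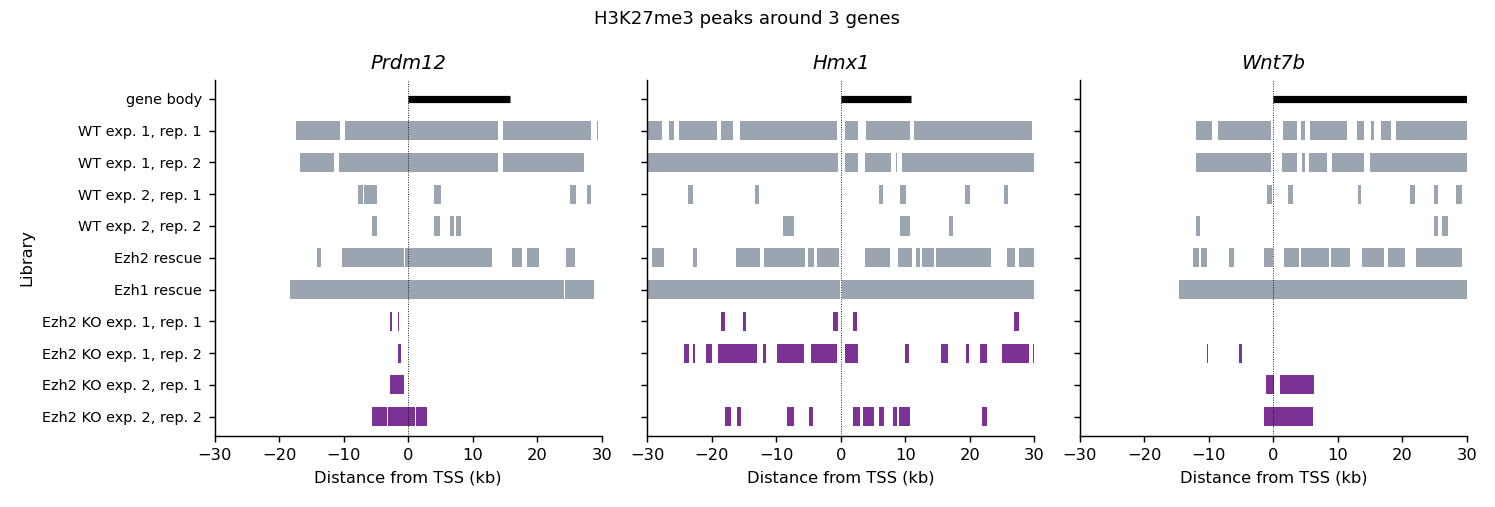
Peaks of the 10 libraries around the TSS of Prdm12, Hmx1 and Wnt7b, by distance from the TSS in kb along the direction of transcription. Bars are peaks (purple, Ezh2 knockout; grey, other libraries) and the black line is the gene body, cut at 30 kb for Wnt7b. At Prdm12 all 4 knockout libraries have a peak upstream of the TSS, at Hmx1 all but replicate 1 of experiment 2 do, and at Wnt7b the knockout peaks over the promoter are those of experiment 2.

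Among the 5 widest other recurrent regions, experiment 1 supplied most of the bases in 4 and experiment 2 in 1. The widest, chr11:118394701-118414561, is intronic by its midpoint and lies 56558 bp from the nearest TSS, that of Engase, a gene for a glycan-cleaving enzyme. Knockout peaks of experiment 1 covered 12257 and 19861 bp of it, and those of experiment 2 covered 0 and 750 bp. At chr9:71361101-71374600, within an intron of Grinl1a, the balance was turned around, with 0 and 235 bp in experiment 1 and 11100 and 13500 bp in experiment 2. The regions chr5:35633495-35646950, near Adra2c, and chr5:35814322-35827509, near Cpz, belong to the Hmx1 locus, with 3191 and 12709 bp and 1998 and 13188 bp in experiment 1 and with 1650 and 3000 bp in replicate 2 of experiment 2. The fifth, chr11:118821594-118830950, lies 18467 bp from Enpp7, an intestinal sphingomyelinase gene. Over all recurrent regions, peaks of experiment 1 were the wider in 45 of 67, with medians of 1251 bp for experiment 1 and 850 bp for experiment 2.

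Of the 5 widest regions private to experiment 2 and found in both of its libraries, 3 lay at Wnt7b, Uncx and Neurod2. Private regions found in 1 library reached 5950 bp. At chr15:85406001-85413650 a region of 7650 bp covered the TSS of Wnt7b, a secreted Wnt ligand, with 6450 bp under peaks in replicate 1 and 7600 bp in replicate 2. Regions of 5750 bp at Uncx (chr5:140020051-140025800), a homeobox gene of the somites and nervous system, and of 5350 bp at Neurod2 (chr11:98184351-98189700), a neuronal differentiation factor, were covered over 1900 and 5750 bp and over 3100 and 5350 bp. Their GC content was 60.76% at Wnt7b, 58.05% at Uncx and 55.14% at Neurod2. The other two, the intronic Grinl1a region (chr9:71351801-71360750, 44.93% GC) and the intergenic region at chr9:30794001-30800400 (42.66% GC), nearest Zbtb44, were not GC-rich. Wild-type peaks of experiment 1 covered between 55.98% and 100.0% of each of the 5 regions. Those of experiment 2 covered from 0.0% in both libraries at Uncx to 85.94% in replicate 1 at the region nearest Zbtb44.

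All of the 5 widest regions private to experiment 1 lay on chromosome 11. The widest, chr11:118481676-118559374, is 77699 bp wide and overlaps Rbfox3, a neuronal splicing factor gene, with 48164 and 77518 bp under knockout peaks and 46.38% and 60.21% of its length under wild-type peaks. The next, chr11:114130721-114207776, is intergenic and of similar width, with 44619 and 76597 bp under knockout peaks but 0.6917% and 0.0% under wild-type peaks. Others were a keratin gene region at Krt32 (chr11:99942425-99980555), an intronic region nearest Sdk2, a neuronal adhesion gene (chr11:113799777-113837742), and another intronic region nearest Rbfox3 (chr11:118680547-118718387). Wild-type coverage ran from 0.0% to 76.82% among them.

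Genes with a knockout peak at the promoter numbered 2353 of 21418 in experiment 1 (11%), 995 of them in both libraries (4.65%), and 85 in experiment 2 (0.397%), 8 of them in both libraries (0.0374%). Both experiments marked 14 genes (0.0654%), which is 16.47% of the experiment 2 genes and 0.595% of the experiment 1 genes. The count depended on the window: it was 2 with 1000 bp on either side of the TSS and 32 with 5000 bp. It was 9 without replicate 2 of experiment 1 and 2 without replicate 2 of experiment 2. Of the experiment 2 genes, 79 of 85 (92.94%, 85.44 to 96.72) also had a wild-type promoter peak in experiment 1, against 25.5% of all genes and 19.34% (17.79 to 20.98) of the experiment 1 knockout genes. In wild type of experiment 2, 55 of the 85 (64.71%) had one, against 10.44% of all genes.

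Promoter GC content separated the 2 gene sets. With genes split into 5 groups of similar size by the GC content of the promoter, from the lowest to the highest, the knockout of experiment 2 marked 1, 6, 4, 9 and 65 genes. In experiment 1 the marked shares were 12.08%, 10.85%, 11.21%, 10.47% and 10.32%. Among promoters with no wild-type peak in experiment 1, the share marked was 13.34% in the lowest group and 9.387% in the highest. Among promoters with one, it was 3.486% of 545 in the lowest group and 11.81% of 1668 in the highest.

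The 14 genes marked in both experiments fell into 2 groups by their state in wild-type cells. With a wild-type promoter peak in experiment 1 were 11: Prdm12, Hmx1, E130018O15Rik, Gm12355, Neurog3, Dio3, Krt75, Otop3, Rab37, Ppp2r2c and 4933407P14Rik. Without one in any wild-type or rescue library were Nop56, a core protein of box C/D snoRNP particles, Hspa8, the constitutive Hsc70 chaperone, and Gm10382, a predicted gene. At Prdm12 the share of the promoter under knockout peaks was 2.999% and 11.4% in experiment 1 and 35.87% and 99.0% in experiment 2. At Hmx1 it was 29.77% and 75.42% in experiment 1 and 0.0% and 13.14% in experiment 2. E130018O15Rik starts 382 bp from Hmx1 on the other strand, so the windows of the 2 genes largely coincide and count as 1 site.

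At Neurog3, a transcription factor of endocrine pancreas and neural progenitors, the shares were 0.0% and 33.53% in experiment 1 and 0.0% and 17.0% in experiment 2. At Dio3, the imprinted gene for thyroid hormone deiodinase 3, they were 11.04% and 22.26%, and 0.0% and 15.56%. At Krt75, a hair follicle keratin, they were 0.0% and 31.73%, and 0.0% and 13.0%. Otop3, a proton channel gene, had 0.0% and 22.74%, and 0.0% and 15%. Of the 14 genes, 13 were marked by replicate 2 of experiment 2 and 2 by replicate 1, and 9 were marked by both libraries of experiment 1. Gm12355 was the one marked by replicate 1 of experiment 2 alone, over 11.52% of its promoter.

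The 3 genes without wild-type peaks were marked in the same libraries. Nop56 had 23.34% and 25.15% of its promoter window under peaks in experiment 1 and 0.0% and 16.32% in experiment 2. Its recurrent region, chr2:130100647-130102750, starts 481 bp downstream of the TSS and was covered over 1167, 1258, 0 and 900 bp. At Hspa8 the shares were 32.89% and 28.41% in experiment 1 and 0.0% and 0.3399% in experiment 2, where the peak only touched the window. Its recurrent region, chr9:40609923-40612500, starts 856 bp downstream of the TSS and runs through the gene body, covered over 2280, 2144, 0 and 950 bp. At Gm10382 the shares were 18.18% and 18.26%, and 0.0% and 13.18%, but the peak of experiment 2 there (chr5:125866701-125867850) overlapped no peak of experiment 1, so this promoter holds no recurrent region. Nop56 and Hspa8 are known as abundantly transcribed genes in dividing cells, and transcript levels were not analysed here.

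**Figure D4:**
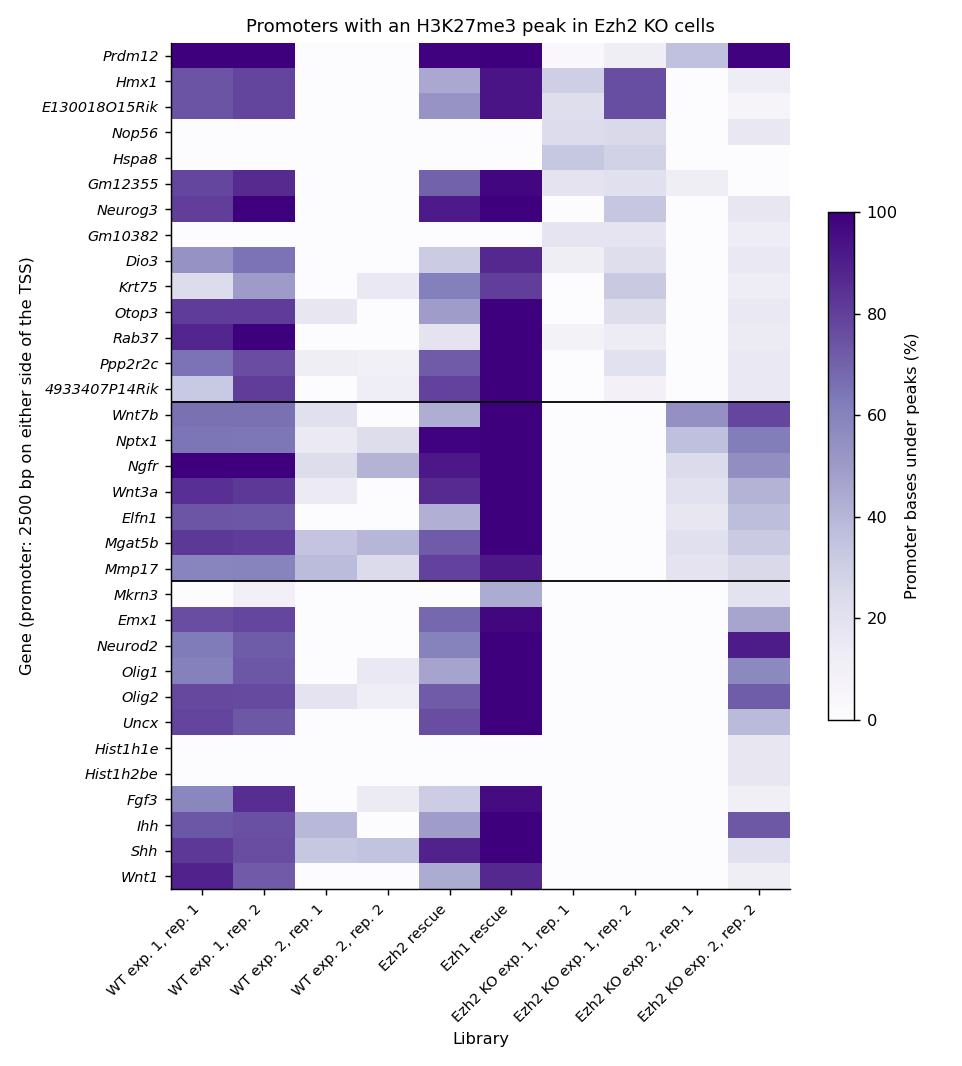
Percent of the promoter (2500 bp on either side of the TSS) under H3K27me3 peaks in each of the 10 libraries. Rows, separated by lines, are the 14 genes marked in the knockout of both experiments, the other genes marked in both knockout libraries of experiment 2, and members of the gene lists marked in its knockout alone. Of the 14, Nop56, Hspa8 and Gm10382 are blank in all wild-type and rescue columns, and the genes of the lower blocks are blank in both knockout columns of experiment 1.

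Beside Prdm12, 7 genes were marked in both knockout libraries of experiment 2, and none of these had a knockout promoter peak in experiment 1. Wnt7b had 53.99% and 77.98% of its promoter under peaks, and Wnt3a, another Wnt ligand, 20% and 40.93%. Nptx1, a synaptic pentraxin, had 35.99% and 61.99%, and Ngfr, the low-affinity neurotrophin receptor, 24.0% and 54.99%. Elfn1, a synaptic adhesion gene, had 17.0% and 36.93%, Mgat5b, a brain glycosyltransferase gene, 21.0% and 31.53%, and Mmp17, a membrane-type metalloproteinase gene, 19% and 25%. Every one of these 7 promoters lay under wild-type peaks of experiment 1 over most of its length, from 58.89% at Mmp17 to 100.0% at Ngfr. Wild-type peaks of experiment 2 itself covered less of each, from 0.0% in both libraries at Elfn1 to 40.99% in replicate 2 at Ngfr. At Wnt7b they covered 21.0% and 0.0%, less than the knockout peaks, and at Mgat5b 34.01% and 40.01%, more than the knockout peaks.

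Among gene lists of known function, ribosomal protein genes were marked almost throughout in experiment 1 knockout. None was marked in experiment 2 knockout, where 0.397% of all genes were. At that rate a list of 59 genes has room for few members, so the count of 0 does not set this list apart. A knockout promoter peak was found at 57 of 59 ribosomal protein genes in experiment 1, 56 of them in both libraries, against 11% of all protein-coding genes, and at 0 in experiment 2. In wild-type cells of experiment 1, 4 of the 59 had one. The median share of the promoter window under knockout peaks was 17.76% in replicate 1 and 20.58% in replicate 2. The highest value was that of Rpl3, at 46.43% and 47.27%, and Rpl13a and Rpl18 had none.

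Peaks at ribosomal protein genes lay just downstream of the TSS. From 500 to 1000 bp downstream, knockout peaks covered 73.17% and 69.05% of bases in the 2 libraries of experiment 1, and from 1000 to 1500 bp 64.4% and 72.22%. In the 2000 bp upstream they covered none. Over all protein-coding genes the corresponding coverage from 500 to 1000 bp downstream was 1.734% and 2.091%. Peaks covered 26.6% of the exon bases and 24.35% of the intron bases of the ribosomal protein genes. None of 78 ribosomal protein pseudogenes, which resemble the exons, met a knockout peak of experiment 1. That 0 allows a share of up to 3.846%, against 6.621% of all 4063 pseudogenes. The study's methods describe unique mapping for the shorter reads, which are those of these lists. Reads that match a gene and a pseudogene equally well are lost that way. The count of 0 therefore cannot show whether these pseudogenes lacked signal. How many reads were lost at them was not tested.

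**Figure D5:**
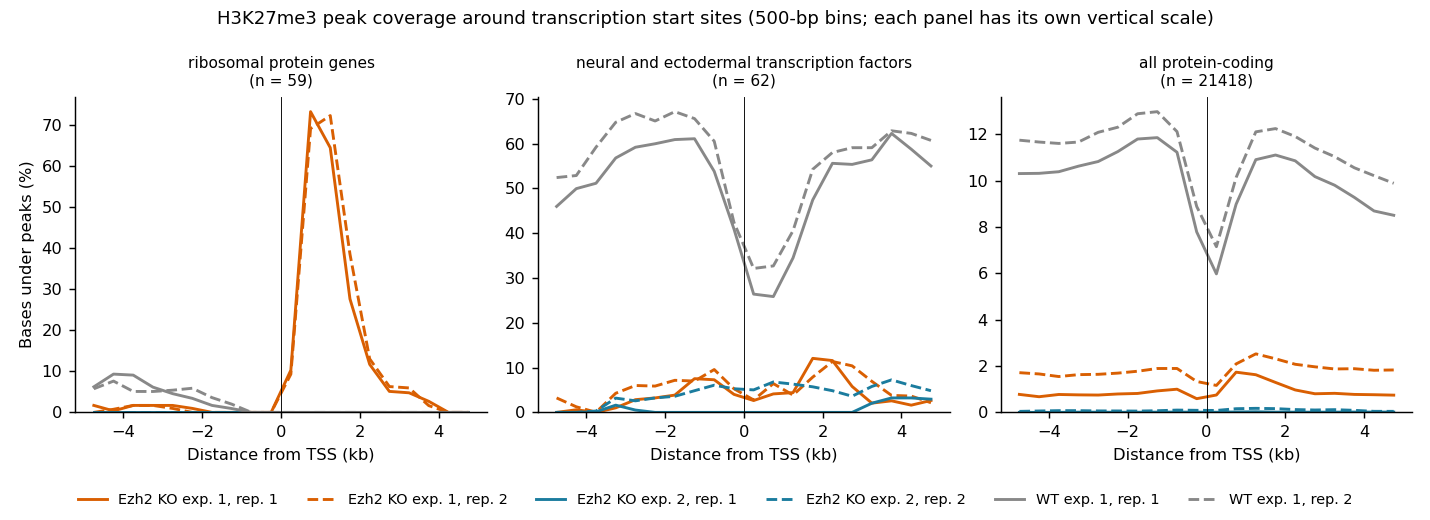
Percent of bases under H3K27me3 peaks in 500-bp bins from 5 kb upstream to 5 kb downstream of the TSS, for ribosomal protein genes, neural and ectodermal transcription factors and all protein-coding genes, each panel with its own vertical scale. Lines are the 4 knockout libraries and the 2 wild-type libraries of experiment 1. In the first panel the knockout lines of experiment 1 rise to 73.17% and 72.22% just downstream of the TSS where all other lines are at 0.

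Housekeeping, cell cycle and fibroblast genes were marked in part, and whether they were active in these cells was not tested. Of 28 housekeeping genes, 14 had a knockout promoter peak in experiment 1 (50%, against 11% of all genes), 10 of them in both libraries. In wild type 0 had one, against 25.5% of all genes in experiment 1 and 10.44% in experiment 2. In experiment 2 knockout 0 had one, against 0.397% of all genes. At that last rate a list of 28 genes has room for few members, so this count of 0 does not set it apart. Eno1, a glycolytic enzyme, had 33.97% and 31.73% of its promoter under peaks, and Pkm2, the pyruvate kinase gene, 29.81% and 30.11%. Eef2, a translation elongation factor, had 19.92% and 25.09%, and Gapdh 20.1% and 16.5%. Of 40 cell cycle and replication genes, 13 had a knockout promoter peak in experiment 1 (32.5%, against 11% of all genes). Among them were Pcna, the replication clamp, with 18.02% and 14.58%, and Top2a, a topoisomerase gene, with 18.98% and 8.358%. Vim, the gene for the fibroblast intermediate filament vimentin, had 33.95% and 25.49%, but only 3 of 29 fibroblast genes were marked, a share close to the 11% of all genes. None of the 38 replication-dependent histone genes was marked in experiment 1, against 11% of all genes.

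Neural and ectodermal regulators were marked in both experiments. Among 62 transcription factors of neural and ectodermal development, 20 carried a knockout promoter peak in experiment 1, 15 of them in both libraries, and 6 had one in experiment 2. Of all protein-coding genes, 11% and 0.397% did. Of the 20 genes of experiment 1, 2 lacked a wild-type promoter peak in that experiment. Such a wild-type peak was found at 50 of the 62 (80.65%), against 25.5% of all genes. Neurog3 was in both sets, and with sets of this size the number shared says nothing about the list. All 6 of the experiment 2 genes rest on its replicate 2, and without that library the count was 0. In experiment 1, Lhx1, a LIM homeobox gene, had 77.3% and 97.0% of its promoter under knockout peaks, En2, a midbrain homeobox gene, 39.97% and 25.99%, and Lhx5 9.358% and 45.01%. In experiment 2, replicate 2 covered 91.0% of the Neurod2 promoter and 71.11% and 57.27% of those of Olig2 and Olig1, neighbouring genes of the oligodendrocyte lineage, while replicate 1 covered none of them.

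Of 51 secreted developmental signals, 6 were marked in each experiment. No gene was in both sets, which are too small for that to be read as a separation. In experiment 1 that share was close to the 11% of all genes, and in experiment 2 it was well above the 0.397%. The experiment 2 genes were Wnt7b, Wnt3a, Ihh (72.99% in replicate 2), Shh (21.0%), Wnt1 (11%) and Fgf3 (10.76%), and 2 of them, Wnt7b and Wnt3a, were marked in both libraries. Without replicate 2 of experiment 2 the count was 2. Those marked in both libraries of experiment 1 were Wnt3, with 12.82% and 21.54%, Bmp6, with 8.238% and 13.92%, and Gdf10, with 12.96% and 17.62%.

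Members of the mesodermal, HOX and epithelial lists were marked in experiment 1 alone. Of 59 mesoderm and endoderm transcription factors, 14 had a knockout promoter peak in experiment 1 (23.73%, against 11% of all genes) and 0 in experiment 2 (against 0.397%). Msx1, a limb and craniofacial homeobox gene, had 46.85% and 47.51%, and Gata6 34.93% and 48.27%. Of 39 HOX cluster genes, 6 were marked in experiment 1 (15.38%, against 11%), 2 of them in both libraries (Hoxa9 with 71.39% and 100.0%, Hoxd11 with 6.119% and 5.919%). Of 20 epithelial genes, 6 were marked (30%, against 11%), among them the neighbouring keratins Krt14, with 29.95% and 93.22%, Krt17, with 37.77% and 100.0%, and Krt15, with 32.85% and 83.02%. A wild-type promoter peak in experiment 1 was lacking at 1 of the 14 mesoderm and endoderm genes, at none of the 6 HOX genes and at 1 of the 6 epithelial genes. Over the whole lists, 76.27%, 64.1% and 90.0% had such a wild-type peak. With 85 genes in the experiment 2 set, a list of 59 or fewer genes has room for few members at the rate of all genes, so the counts of 0 in experiment 2 do not set these lists apart. Of 22 markers of blood and endothelial cells, 13 had a wild-type promoter peak in experiment 1 (59.09%, against 25.5% of all genes). None had a knockout promoter peak, against 11% of all genes in experiment 1 and 0.397% in experiment 2. At these rates a list of 22 genes has room for few members, so the counts of 0 do not set it apart.

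Of 33 imprinted genes, 15 were marked in experiment 1 (45.45%, against 11% of all protein-coding genes), 11 of them in both libraries. Of the 15, 6 had a wild-type promoter peak in experiment 1 and 9 had none, while 19.34% of all genes marked in experiment 1 knockout had one. Meg3, a maternally expressed noncoding RNA gene, had 33.71% and 86.48% of its promoter under knockout peaks, Impact, a paternally expressed gene, 44.87% and 70.19%, and Nap1l5, another paternally expressed gene, 35.99% and 49.29%. Impact and Nap1l5 had 0.0% in both wild-type libraries of experiment 1. In experiment 2, 2 of 33 were marked (6.061%, against 0.397% of all genes), Dio3 and Mkrn3, the latter over 19.78% in replicate 2. Hist1h1e and Hist1h2be were marked in experiment 2 by 1 shared peak, chr13:23713401-23714250, with no peak in any other list.

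In the other two lists no gene was marked in experiment 2, where 0.397% of all genes were. Of 31 Polycomb complex genes, 2 were marked in experiment 1 (6.452%, against 11% of all genes), 1 of them, Epop (annotated as E130012A19Rik), in both libraries with 11.88% and 18.24%. Ezh1 had no knockout peak at its promoter. Of 21 CDK inhibitor and tumor suppressor genes, 5 were marked (23.81%), among them Trp53, with 5.959% and 3.599% and no wild-type peak. Cdkn2a, the gene for p16 and p19, had no peak within 2500 bp of its annotated TSS in any of the 10 lists. The rest of the gene was not examined. At Myc, the endogenous gene, wild-type peaks of experiment 1 covered 31.21% and 21.5% and knockout peaks 8.478% and 8.218% of the promoter, with none in experiment 2 knockout. Cpa6, a carboxypeptidase gene, had 42.95% and 16.32% of its promoter under peaks in wild type of experiment 1. It had 11% in the Ezh1 rescue library and no knockout peak at the promoter.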

How the data were processed

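The data were H3K27me3 ChIP-seq peaks, deposited as 1 list for each of 10 libraries, 4 of them from knockout cells. Each experiment has 1 input sample, which was not analysed here. According to the study's methods, the authors digested chromatin with micrococcal nuclease, aligned single-end reads to mm9, removed duplicates, down-sampled the reads, applied a coefficient to some conditions (the Ezh2 knockout among them) according to the immunoprecipitated DNA, and called peaks per sample against input. Whether the deposited lists reflect the coefficient cannot be read from them. Tools listed in the submitters' processing notes are HOMER 3.17, MACS2 2.0.10, SAMtools, Bowtie2 2.1.0 and Bowtie 0.12.8. The deposited files hold peak positions in base pairs (chromosome, start, end) and no height or score, so depth is unknown and the precision of a peak cannot be given. All columns of the lists were used.

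Exact duplicate lines were merged, autosomal peaks kept and positions written 1-based. Overlap meant at least 1 bp. Genes came from GENCODE's mm9 annotation, with 21418 protein-coding genes on autosomes and promoters 2500 bp on either side of the TSS. GC content was read from NCBIM37, and repeats were not analysed here. The background was 2393222 tiles of 1 kb. Differences between libraries were tested by exact permutation (2 against 2, two-sided), whose smallest p is 0.33, and shares have 95% Wilson intervals that cover counting error only and carry no p, since regions are not replicates. Limits for a count of 0 use 3 counts. Members, the 14 gene lists (544 genes, 11 unmatched or not autosomal, 4 matched through another symbol) and tests were chosen with earlier results of these data known. Regions named were the one in all 4 lists, the 5 widest other recurrent ones and, for each private class, the 5 widest found in both its libraries. Genes named were those marked in both experiments and up to 4 members per list, with Ezh2, Ezh1, Cdkn2a, Cpa6 and Myc. Genes beyond that rule were chosen after their values were seen. The overlap code gave 0 mismatches over 2400 simulated intervals. Alternatives were a minimum peak width (550 or 1000 bp), joining of peaks less than 1000 bp apart, a 50% overlap, leaving out chromosome 5 or each knockout replicate, other promoter windows and gene sets, and a replicate block. Python 3.11.15, NumPy 2.4.6, pandas 2.3.3, SciPy 1.17.1 and matplotlib 3.10.9 were used.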

Additional observations from a re-analysis of the deposited data

Results flagged for a closer look

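In 4 measures the knockout lists differed from wild type in opposite directions in the 2 experiments, with every library of one experiment on one side and every library of the other experiment on the other. None of these differences between experiments was tested. The median peak width in knockout minus wild type was -327 bp in experiment 1 and 350 bp in experiment 2. The median ratio of observed to expected CpG differed by -0.03825 and 0.0532, the share of peaks at promoters by -4.728 and 19.45 percentage points, and the share of peak bases on chromosome 11 by -0.696 and 5.01 percentage points.

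Outside the autosomes, the knockout lists of experiment 1 held 23 peaks on chromosome Y in replicate 1 and 21 in replicate 2, where both wild-type lists of the experiment held 0. Replicate 2 also held 1 peak on the mitochondrial genome, where wild type held 0.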

How the results depend on the processing

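Of 138 recomputed values, 103 were classed as the same, 35 as moved and 0 as reversed. For covered length, GC content and promoter share, the same meant only the same sign, and closeness was not checked. A share had to lie within the Wilson interval of the value reported, and a count within 1.5 times it. The exact tests of covered length, GC content and promoter share cannot pass a threshold of 0.05, so they say nothing about stability, but the direction of these 3 differences held under every alternative run for them. Samples of the 2 experiments share only replicate numbers. With the replicate block, the paired difference between experiments was 40.17 Mb in covered length, -7.67 percentage points in GC content and -25.7 in promoter share, each with an exact sign-flip p = 0.5, the smallest that 2 pairs allow.

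The recurrence of experiment 2 regions fell to 15.14% with peaks of at least 550 bp, 5.882% with those of at least 1000 bp and 4.0% when both libraries of each experiment were required. Leaving out each knockout replicate in turn gave 5.222 to 18.85%. The number of recurrent regions was 9 with peaks of at least 1000 bp, and 4 to 66 without a replicate. The genes marked in both experiments were 2 with peaks of at least 1000 bp, 2 with promoters of 1000 bp, 32 with 5000 bp and 28 with all annotated genes, and 2 to 14 without a replicate. Wild-type overlap of recurrent regions was 100.0% with peaks of at least 1000 bp and 85.0 to 100.0% without a replicate. For regions private to experiment 2 it was 84.52% when both wild-type libraries were required and 90.65 to 100.0% without a replicate. For those private to experiment 1 it was 7.201% with peaks joined, 7.62% with peaks of at least 1000 bp, 6.621% with an overlap of 50%, 4.491% with both wild-type libraries, 6.936% without chromosome 5, and 6.62 to 8.713% without a replicate.

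Covered length in experiment 1 minus experiment 2 ran from 23.99 to 56.34 Mb without a replicate. Where 1 library remains in an arm, the value has no spread of its own. Peak lists of 29 and 382 entries limit every share in experiment 2, and positions alone cannot show whether an absent peak is an absent mark. The cause of these changes was not tested.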
